A study of Mus musculus with 6 samples.

Results

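The genes described here encode the solute carrier (SLC) families 1, 3, 6, 7, 36, 38 and 43, which hold most of the transporters that move amino acids across the membranes of mouse cells. Members were the protein-coding genes of the deposited table whose symbol begins with one of these family numbers, a rule that used no measured value. It found 60 of the 23194 genes in the table. One of them, Slc7a6os, is named for lying opposite Slc7a6 and is not a transporter, and several SLC6 members carry amines, creatine or taurine in place of the amino acids of proteins. RNA came from the whole left lung of wild type C57BL/6 mice, all adult. The naive group held 3 lungs, and their labels describe no operation. The other 3 lungs, here called injured, had the left pulmonary artery tied under anaesthesia for 4 h and then 24 h of restored blood flow, a warm ischemia-reperfusion injury. Operation, anaesthesia and ischemia therefore cannot be told apart. Since a mouse has 1 left lung, each library was counted as 1 mouse.

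Amino acid carriers differ in how they are driven. SLC1, SLC6 and SLC38 carriers mostly use the sodium gradient, SLC36 carriers such as Slc36a1 and Slc36a2 use protons, and most SLC7 carriers exchange one amino acid for another. The exchangers of SLC7 are light subunits that reach the membrane bound by a disulfide bridge to a heavy subunit, Slc3a2 (4F2hc, CD98) or Slc3a1 (rBAT). The light subunit Slc7a11 (xCT) forms with Slc3a2 the cystine-glutamate exchanger that feeds glutathione synthesis. Several carrier genes are known targets of ATF4, the transcription factor of the amino acid starvation response, and Slc7a11 is also a known target of NRF2, the factor of the antioxidant response.

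The transporter with the largest change, Slc7a11, is shown first with its promoter, beside that of Slc7a8, the light subunit with the second largest. RefSeq promoter windows of GRCm38.p6 (the assembly called mm10), 250 bases before to 50 bases after the annotated start, were matched by symbol for 44 of the 60 members. They were searched on both strands for TGATGNAA, a form of the composite element that ATF4 binds, and for TGACNNNGC, the core of the antioxidant response element that NRF2 binds. Capitals mark the ATF4-type letters. The Slc7a11 window lies at chr3:50443564-50443863 and the Slc7a8 window at chr14:54781837-54782136, both on the minus strand and both printed 5′ to 3′ along the gene.
Slc7a11: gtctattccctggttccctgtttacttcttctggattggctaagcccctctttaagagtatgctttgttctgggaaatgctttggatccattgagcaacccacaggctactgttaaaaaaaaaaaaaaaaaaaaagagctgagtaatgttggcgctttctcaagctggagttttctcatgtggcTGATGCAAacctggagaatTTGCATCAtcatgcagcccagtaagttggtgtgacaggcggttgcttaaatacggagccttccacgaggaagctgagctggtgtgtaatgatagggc
Slc7a8: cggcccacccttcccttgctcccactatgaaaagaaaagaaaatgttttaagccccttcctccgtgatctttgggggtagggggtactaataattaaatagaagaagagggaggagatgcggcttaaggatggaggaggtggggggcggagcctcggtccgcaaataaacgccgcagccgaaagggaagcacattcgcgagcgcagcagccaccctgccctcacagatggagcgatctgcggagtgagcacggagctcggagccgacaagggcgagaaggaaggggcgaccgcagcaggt
The Slc7a11 window held the ATF4-type letters at 2 places, starting 66 and 47 bases before the annotated start, in opposite orientation to each other. The Slc7a8 window held none, and neither window held the antioxidant-type letters. Of 32851 promoter windows of the same length in the reference, 3.97% held the ATF4-type letters and 12.4% the antioxidant-type letters. The 44 members had 65 windows, since some have several annotated starts, and 4 windows of 3 members held the ATF4-type letters. The antioxidant-type letters were in 10 windows of 8 members, Slc6a9, Slc6a11, Slc6a13, Slc7a1, Slc7a6, Slc36a1, Slc38a2 and Slc43a1. Only Slc1a4 and Slc7a7 among the other members with a window had the ATF4-type letters. They are shown as 30 bases each, from the minus strand, at chr11:20332699-20332728 for Slc1a4 and at chr14:54417927-54417956 and chr14:54418067-54418096 for Slc7a7. Both Slc7a7 places belong to other annotated starts, upstream of the deposited range of the gene (54369444 to 54409472).
Slc1a4: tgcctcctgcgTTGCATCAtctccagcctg
Slc7a7: gacctagaagcTGATGCAAcagcttccccg
Slc7a7, second place: ccgcttgggctTGATGAAAggttcactggg
Matches are a description of letters, and binding was not measured. Members with no window, Slc1a5 and Slc7a5 among them, were not searched, nor were bases outside the windows.

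Of the 60 members, 40 had enough counts to be tested and 20 did not. None of the 40 was called at an adjusted p under 0.05 by edgeR's quasi-likelihood test, against 3.11% of all 15486 genes tested (2.16% higher and 0.956% lower). At an unadjusted p under 0.05 there were 3 members with higher values in injured lungs, Slc7a11, Slc7a8 and Slc6a9, and 2 with lower values, Slc1a3 and Slc38a5. These 5 are 12.5% of the tested members, where the share over all tested genes was 16.7% (9.07% higher and 7.66% lower). The median log2 fold change of injured over naive lungs was 0.018 over the members and -0.00095 over all genes tested, with 20 members above 0 and 20 below. For 32 members the 95% interval of the log2 fold change lay within a 2-fold change in either direction (80.0%, against 79% of all genes). DESeq2 called 2 members, Slc7a11 and Slc7a8, both higher, where it called 6.47% of all genes. The authors' deposited table also lists 2 members under an adjusted p of 0.05, Slc7a11 (adjusted p = 0.000499) and Slc7a8 (adjusted p = 0.00339). It gives an adjusted p for 41 members, and its share over all genes was not counted here. These values come from the same 6 libraries. Limma-voom called 0 members, where it called 2.76% of all genes. With 1 library left out, edgeR called Slc7a8 without injured replicate 1 (adjusted p = 0.0437) and Slc7a11 without injured replicate 2 (adjusted p = 0.0116). It called Slc3a2 higher without injured replicate 3 (adjusted p = 0.0484), Slc6a20a higher and Slc38a5 lower without naive replicate 1 (adjusted p = 0.04996 and 0.0478), and Slc1a5 lower without naive replicate 3 (adjusted p = 0.0499).

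**Figure D1:**
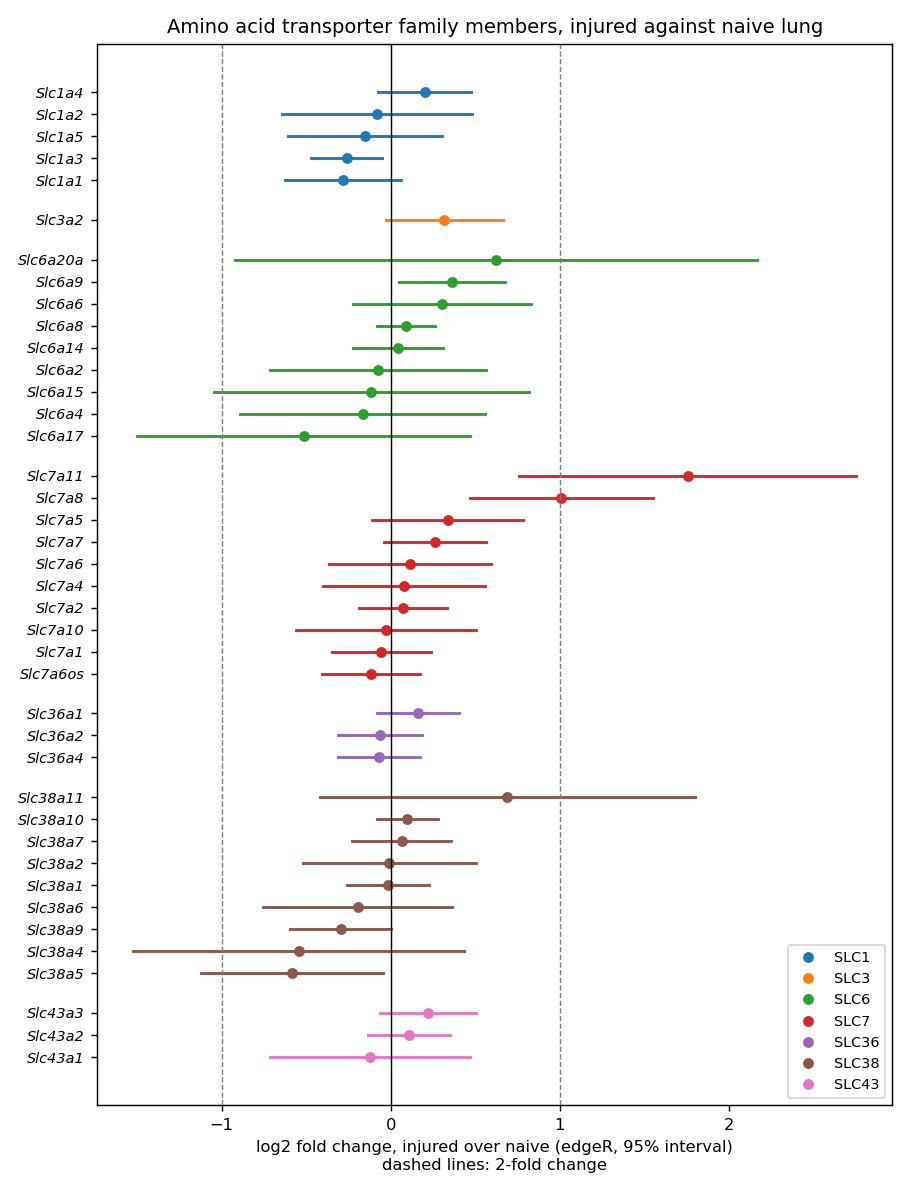
Log2 fold change of injured over naive lungs (horizontal axis) for each of the 40 tested members, grouped by SLC family, with edgeR's 95% interval as a bar. Slc7a11 at 1.76 and Slc7a8 at 1.01 lie farthest to the right, and 32 of the intervals lie inside the dashed lines that mark a 2-fold change.

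The largest difference was that of the cystine exchanger subunit Slc7a11 (ENSMUSG00000027737, chromosome 3, 50364936 to 50443613 in mm10). It stood at 2.72, 1.90 and 1.61 CPM (counts scaled to a common library size by TMM) in naive replicates 1, 2 and 3, and at 7.34, 3.14 and 10.6 CPM in injured replicates 1, 2 and 3. Every injured lung lay above every naive lung, but injured replicate 2 was close to naive replicate 1. The log2 fold change was 1.76 ± 0.43 (SE, 95% interval 0.76 to 2.75, unadjusted p = 0.00357), and the adjusted p of 0.0774 from edgeR missed the threshold. Counts behind these values were low, from 36 to 252 reads per library. Its FPKM, the reads scaled to gene length and to the library total, was 0.225 ± 0.0652 (SD, n = 3) in naive and 0.766 ± 0.407 (SD, n = 3) after injury.

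Slc7a8 (LAT2, ENSMUSG00000022180, chromosome 14, 54722216 to 54781886 in mm10) exchanges neutral amino acids. Its values were 5.54, 4.28 and 5.53 CPM in naive replicates 1 to 3 and 7.24, 9.92 and 13.9 CPM in injured replicates 1 to 3. The groups did not overlap. The log2 fold change was 1.01 ± 0.24 (SE, 95% interval 0.47 to 1.55, unadjusted p = 0.00214), with an adjusted p of 0.0582 from edgeR. That adjusted p was 0.0491 with the replicate number as a block and 0.0140 with no filter on low counts. Over all 14 alternatives the adjusted p of Slc7a8 ran from 0.00395 to 0.217 and was under 0.05 in 4. For Slc7a11 it ran from 0.000709 to 0.260 and was under 0.05 in 2. For both genes the highest value was in injured replicate 3. Without injured replicate 3 the log2 fold change was 1.33 for Slc7a11 and 0.74 for Slc7a8.

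Of the 12 tested neutrophil markers, 10 were higher in every injured than in every naive lung, as were 12 of the 14 monocyte and macrophage markers. Across all genes tested, 12.3% were higher in every injured lung. Summed neutrophil markers ran from 185 to 249 CPM in naive and from 1487 to 2001 CPM after injury, and summed monocyte and macrophage markers from 1722 to 1917 and from 2412 to 2710 CPM. Injured replicate 3 had the highest monocyte and macrophage sum, and injured replicate 1 the highest neutrophil sum. Fn1 and Apoe, the largest parts of the former sum, were highest in injured replicate 3 (1102 and 770 CPM), as were Vcan and Cd68. Ccr2, Ly6c2 and Csf1r were lowest there among injured lungs (54.8, 14.3 and 130 CPM). In injured replicates 1 to 3, Lcn2 stood at 576, 329 and 874 CPM and S100a9 at 471, 379 and 237 CPM. The sums alone therefore do not rank the injured lungs by cell content. All 10 T cell markers were lower in every injured lung, with sums of 98.9 to 109.7 CPM in naive and 55.2 to 65.5 CPM after injury. The part of these cell types in the values of the transporters was not tested. In whole tissue, a different number of cells of a type and a different amount of RNA per cell cannot be told apart.

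In all, 7 of the 40 tested members had groups that did not overlap, 5 with all injured lungs higher and 2 with all injured lungs lower. That is 17.5%, against 22.9% of all tested genes (12.3% with all injured lungs higher and 10.6% lower). Besides Slc7a11 and Slc7a8, the 5 were Slc7a7, Slc6a8 and Slc6a9, and the 2 were Slc1a3 and Slc38a9.

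**Figure D2:**
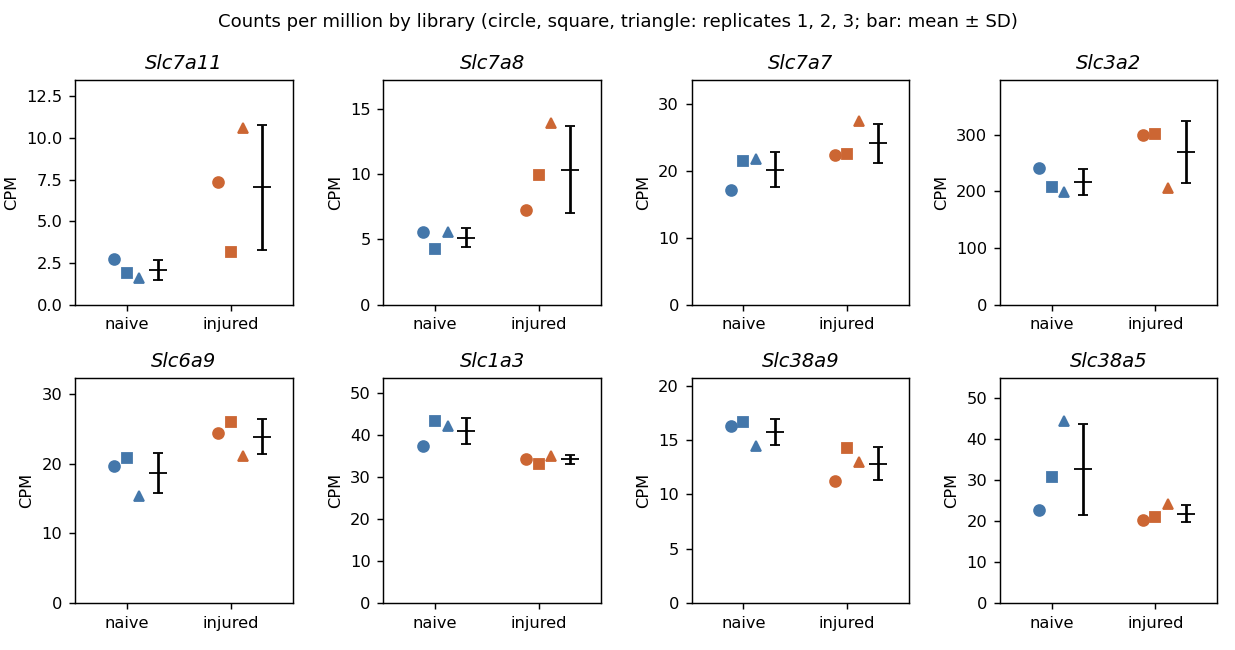
CPM (vertical axis, from 0) of 8 members in each library, with naive lungs in blue and injured lungs in orange and the mean ± SD of each group as a bar. Slc7a11 and Slc7a8 are higher in all 3 injured lungs with injured replicate 3 the highest, while Slc3a2 is lowest among injured lungs in that replicate.

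The heavy subunit Slc3a2, which also binds integrins, was the second most abundant member per length, at 76.5 ± 9.03 FPKM in naive and 96.2 ± 19.9 FPKM after injury (SD, n = 3). It stood at 242, 207 and 199 CPM in the naive replicates and at 300.2, 302 and 205 CPM in the injured replicates. Injured replicates 1 and 2 lay above all naive lungs and injured replicate 3 lay among them. The log2 fold change was 0.32 ± 0.15 (SE, 95% interval -0.031 to 0.66), with an adjusted p of 0.346 from edgeR and a value of 0.48 without injured replicate 3. The other heavy subunit, Slc3a1, which serves kidney and gut, had 3 to 11 reads per library and was not tested.

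Beside Slc7a11 and Slc7a8, the light subunits that pair with Slc3a2 were Slc7a5, Slc7a6, Slc7a7 and Slc7a10. Slc7a7 (y+LAT1), which exports cationic amino acids and is known from macrophages, was the most abundant of the 6 per length. Its level was 9.36 ± 1.12 FPKM in naive and 11.3 ± 1.36 FPKM after injury (SD, n = 3). It went from 17.2, 21.5 and 21.8 CPM to 22.4, 22.5 and 27.5 CPM, so the groups did not overlap, although injured replicates 1 and 2 exceeded the highest naive lung by less than 1 CPM. Its log2 fold change of 0.26 ± 0.13 (SE) had an adjusted p of 0.376 from edgeR. Slc7a5 (LAT1), the carrier of large neutral amino acids in dividing cells, had a log2 fold change of 0.34 ± 0.20 (95% interval -0.11 to 0.78), with 12.5 to 17.6 CPM in naive and 14.2 to 23.6 CPM after injury. Slc7a6 (y+LAT2) had 0.11 ± 0.21. Slc7a10 (Asc-1), a carrier of small neutral amino acids, had -0.030 ± 0.23, and its injured lungs were spread from 8.68 CPM in replicate 2 to 17.3 CPM in replicate 1.

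The 6 light subunits together reached 27.4 ± 2.01 FPKM in naive and 32.9 ± 4.93 FPKM after injury (SD, n = 3). Slc3a2 exceeded this sum 1.91-fold in injured replicate 3 and 3.76-fold in injured replicate 2, with the naive lungs between 2.35-fold and 3.40-fold. Slc7a7 took 34.1% ± 2.65 of the sum in naive and 34.6% ± 1.95 in injured lungs. The share of Slc7a8 was 4.62% ± 0.765 in naive and 7.78% ± 1.80 in injured lungs, and that of Slc7a11 was 0.833% ± 0.300 and 2.25% ± 0.943 (SD, n = 3 each). Even in the injured lung where it was highest, Slc7a11 made up 3.02% of these transcripts. The light subunits Slc7a9, Slc7a13 and Slc7a15 had at most 6 reads in any library and were not tested.

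**Figure D3:**
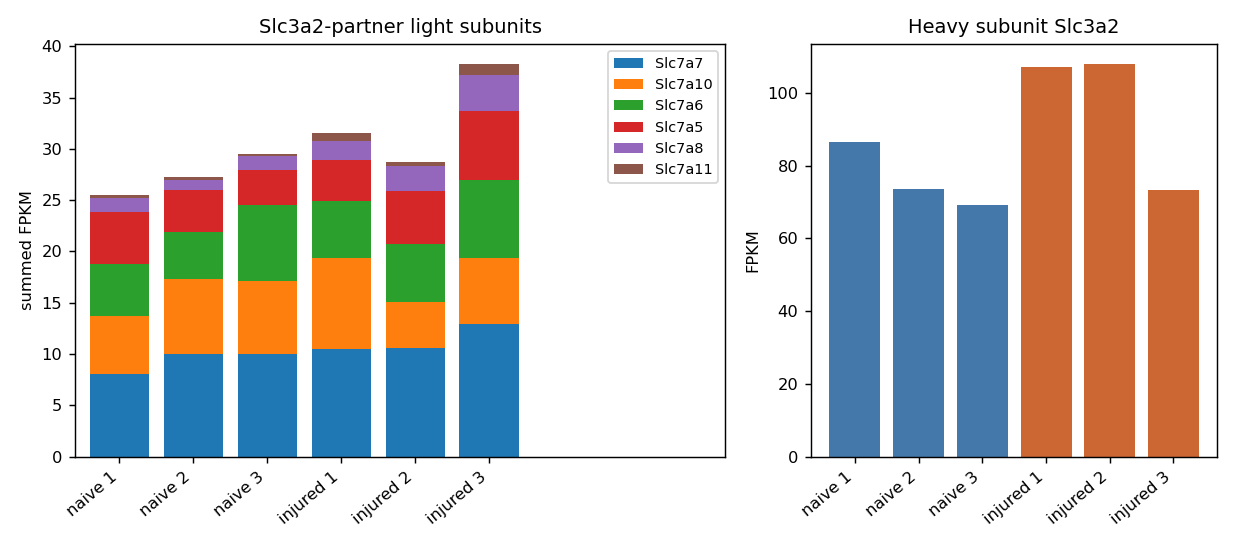
Left, FPKM of the 6 light subunits stacked for each library. Right, FPKM of their heavy subunit Slc3a2 in the same libraries. Slc7a7 forms the base of every stack, Slc7a8 and Slc7a11 are the thin upper bands that are wider in injured lungs, and Slc3a2 is lower in injured replicate 3 than in injured replicates 1 and 2.

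The cationic carriers of SLC7 take up arginine, lysine and ornithine. Slc7a2 (CAT2), known for arginine supply to activated macrophages, was the most abundant of them at 7.91 ± 1.01 FPKM in naive and 8.38 ± 0.941 FPKM after injury (SD, n = 3). It stood at 66.0, 67.8 and 54.6 CPM in the naive and at 57.9, 67.3 and 72.5 CPM in the injured replicates, which overlap. Slc7a2 had a log2 fold change of 0.071 ± 0.12 (95% interval -0.19 to 0.33). Slc7a1 (CAT1), the widely expressed arginine carrier, had -0.055 ± 0.13 (95% interval -0.35 to 0.24). Slc7a4, whose substrate is less clear, had 0.080 ± 0.21. Slc7a3 and Slc7a14 had at most 17 reads in any library and were not tested. Slc7a6os, the member that is not a carrier, had a log2 fold change of -0.12 ± 0.13 and a level of 8.52 ± 0.321 FPKM in naive lungs, the second highest among the SLC7 symbols.

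In SLC1, 5 of 7 members were tested. The high-affinity glutamate carrier Slc1a3 (GLAST) had the lowest adjusted p of the family (0.198 by edgeR). It stood at 37.4, 43.3 and 42.1 CPM in naive and at 34.3, 33.1 and 35.1 CPM after injury, so all injured lungs were lower. The difference was small, with a log2 fold change of -0.26 ± 0.094 (95% interval -0.47 to -0.050). The glutamate carriers Slc1a1 (EAAC1) and Slc1a2 (GLT-1) had -0.28 ± 0.15 and -0.080 ± 0.25. The neutral amino acid exchangers of the family take up serine, alanine and glutamine. Slc1a5 (ASCT2) was the most abundant SLC1 member, at 42.997 ± 12.5 FPKM in naive and 38.9 ± 0.816 FPKM after injury. Its naive lungs were at 143, 138 and 82.1 CPM and its injured lungs at 111, 106.8 and 108.1 CPM. Naive replicate 3 was thus the lowest library and naive replicates 1 and 2 the highest. The log2 fold change of Slc1a5 was -0.15 ± 0.20, and -0.38 ± 0.082 without naive replicate 3. Slc1a4 (ASCT1) had 0.20 ± 0.12. Slc1a6 and Slc1a7 had at most 21 reads in any library and were not tested.

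SLC38 carriers bring glutamine and small neutral amino acids into cells or out of lysosomes, and 9 of 11 members were tested. Slc38a10 was the most abundant, at 42.4 ± 1.90 FPKM in naive and 45.8 ± 1.81 FPKM after injury (SD, n = 3), with a log2 fold change of 0.097 ± 0.081. Slc38a2 (SNAT2), a carrier that cells raise when amino acids are scarce, stood at 115, 116 and 198 CPM in naive and at 140.0, 131 and 156 CPM after injury. Its log2 fold change was -0.0073 ± 0.22 by edgeR with TMM and 0.012 with library size alone, and it was 0.30 without naive replicate 3. Slc38a5 (SNAT5), a carrier of glutamine, asparagine, histidine and serine, had the lowest adjusted p of the family (0.259 by edgeR). It stood at 22.6, 30.8 and 44.6 CPM in naive and at 20.4, 21.0 and 24.1 CPM after injury, and injured replicate 3 lay above naive replicate 1. The log2 fold change was -0.58 ± 0.23 (95% interval -1.12 to -0.044). Slc38a4 had 40.2 CPM in naive replicate 3 against 14.9 to 18.9 CPM in the other 5 libraries, and a log2 fold change of -0.54 ± 0.40.

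Slc38a9 is the lysosomal arginine sensor that signals to the growth kinase mTORC1. It stood at 16.3, 16.6 and 14.4 CPM in naive and at 11.2, 14.3 and 13.0 CPM after injury, so all injured lungs were lower, injured replicate 2 only just. The log2 fold change was -0.30 ± 0.13 (95% interval -0.59 to 0.0040), with an adjusted p of 0.306 from edgeR. The lysosomal glutamine exporter Slc38a7 had 0.066 ± 0.13. Slc38a1 (SNAT1) had -0.016 ± 0.11, Slc38a6 had -0.20 ± 0.25 and Slc38a11, at 6 to 25 reads per library, had 0.69 ± 0.49. The liver-type glutamine carrier Slc38a3 and Slc38a8 had at most 11 reads in any library and were not tested.

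Carriers of SLC36 export amino acids from lysosomes or take them up. All 3 tested members of 4 had 95% intervals inside a 2-fold change. Slc36a2 was the most abundant, at 13.9 ± 0.815 FPKM in naive and 13.5 ± 1.41 FPKM after injury, with a log2 fold change of -0.063 ± 0.11. Slc36a4 followed with 9.84 ± 0.496 and 9.47 ± 1.17 FPKM and a log2 fold change of -0.071 ± 0.11. Slc36a1 (PAT1), found in lysosomes, had 0.16 ± 0.11, the lowest adjusted p of the family (0.513 by edgeR). Slc36a3 had at most 2 reads in any library and was not tested.

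SLC43 held the most abundant member of all. Slc43a3, a family member that carries purine nucleobases and not amino acids, reached 162 ± 25.7 FPKM in naive and 190.5 ± 20.3 FPKM after injury (SD, n = 3). It stood at 489, 424 and 365 CPM in the naive and at 494, 550 and 446 CPM in the injured replicates, which overlap. Its log2 fold change was 0.22 ± 0.13 (95% interval -0.061 to 0.50), with an adjusted p of 0.428 from edgeR. The carriers of branched-chain and other large neutral amino acids Slc43a2 (LAT4) and Slc43a1 (LAT3) had 0.11 ± 0.11 and -0.12 ± 0.26.

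In SLC6, 9 of 18 members were tested. Among its amino acid carriers the glycine transporter Slc6a9 (GlyT1) had the lowest adjusted p (0.229 by edgeR). It stood at 19.6, 20.8 and 15.4 CPM in naive and at 24.4, 26.0 and 21.1 CPM after injury. The groups did not overlap, with injured replicate 3 just above naive replicate 2, and the log2 fold change was 0.36 ± 0.14 (95% interval 0.048 to 0.68). Exons of Ccdc24 on the other strand cover 27.8% of the exon bases of Slc6a9, and whether counting used strand is not given here. The same holds for Slc1a1, Slc7a10, Slc6a20a and Slc7a4, of whose exon bases 31.9%, 17.9%, 13.8% and 13.3% lie opposite exons of another gene, so the values of these members are uncertain. Slc6a14 (ATB0,+), a carrier of neutral and cationic amino acids in airway and alveolar epithelium, was the most abundant amino acid carrier of SLC6. It stood at 108.5, 111 and 82.1 CPM in naive and at 106.85, 105 and 98.8 CPM after injury, with a log2 fold change of 0.043 ± 0.12 (95% interval -0.23 to 0.31). The proline carrier Slc6a20a had 0.62 ± 0.66, with 3.09 CPM in naive replicate 1 against 0.634 and 0.497 CPM in naive replicates 2 and 3, and 1.97 ± 0.42 without naive replicate 1. The neuronal-type carriers Slc6a15 and Slc6a17, at means of 1.41 to 4.12 CPM, had -0.11 ± 0.41 and -0.52 ± 0.44, and the intervals of both reached beyond a 2-fold change.

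The other SLC6 members carry amines and osmolytes. The taurine transporter Slc6a6 was the third most abundant member, at 49.8 ± 12.3 FPKM in naive and 62.0 ± 14.7 FPKM after injury. It stood at 337, 362 and 226 CPM in naive and at 307, 353 and 482 CPM after injury, with the lowest value in naive replicate 3 and the highest in injured replicate 3. Injured over naive gave a log2 fold change of 0.30 ± 0.22. The creatine transporter Slc6a8 had tight groups, at 72.5, 72.9 and 74.0 CPM in naive and at 79.1, 76.2 and 78.5 CPM after injury, which did not overlap. Its log2 fold change was 0.091 ± 0.076 (95% interval -0.080 to 0.26). The noradrenaline transporter Slc6a2, which lung endothelium is known to express, stood at 159.5, 120.1 and 151 CPM in naive and at 153, 171 and 85.2 CPM after injury. Injured replicate 3 was its lowest library, and that library also had the lowest sum of endothelial markers (4408 CPM, against 5352 to 5687 CPM in naive lungs). The serotonin transporter Slc6a4 was lowest in injured replicate 3 as well, at 4.76 CPM against 5.41 to 10.2 CPM in the other 5. Its value of 5.41 CPM was that of naive replicate 3, the library with the highest sum of endothelial markers (5687 CPM). The log2 fold changes of Slc6a2 and Slc6a4 were -0.073 ± 0.26 and -0.17 ± 0.32. The part of endothelial content in these values was not tested. The dopamine transporter Slc6a3, the GABA and betaine carriers Slc6a11, Slc6a12 and Slc6a13, and the amino acid carriers Slc6a5, Slc6a7, Slc6a19 and Slc6a20b had at most 11 reads in any library and were not tested.

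**Figure D4:**
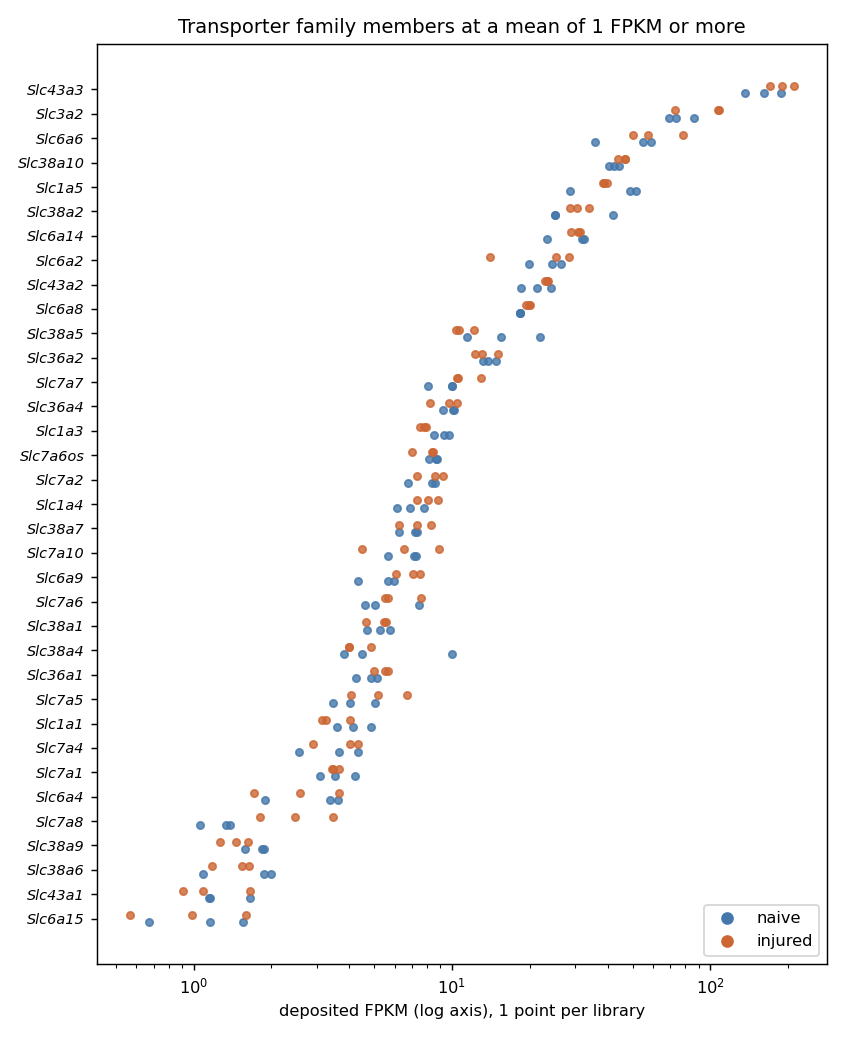
Deposited FPKM (horizontal log axis) of the 35 members with a mean of 1 FPKM or more, ordered by their mean, with 1 point per library, naive in blue and injured in orange. Slc43a3, Slc3a2 and Slc6a6 lead, and for most members the blue and orange points overlap.

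Per length, 13 members had a mean of 10 FPKM or more over the 6 libraries, 22 lay from 1 to 10 FPKM and 25 lay under 1 FPKM. Slc43a3, Slc3a2 and Slc6a6 headed the order with means of 176, 86.4 and 55.9 FPKM, and their ranges over the libraries (136 to 211, 69.2 to 108.1 and 35.7 to 78.4 FPKM) overlapped only for Slc3a2 and Slc6a6. Neighbours such as Slc38a10 and Slc1a5 overlapped (40.6 to 46.9 and 28.6 to 51.4 FPKM). Summed over all members, the level was 648 ± 43.9 FPKM in naive and 709.7 ± 29.2 FPKM after injury (SD, n = 3). The SLC7 sum was 51.1 ± 0.684 FPKM in naive and 56.7 ± 3.93 FPKM after injury, and the SLC38 sum was 111 ± 16.2 and 107.9 ± 3.54 FPKM.

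Among naive lungs, replicate 3 stood apart for several members. It was the highest of the 6 libraries for 10 of the 40 tested members and the lowest for 13, that is 25.0% and 32.5%, where it was highest for 21.4% and lowest for 21.6% of all tested genes. Its value exceeded both other naive lungs by more than 1.5-fold for Slc38a2, Slc38a4 and Slc7a6. It lay more than 1.5-fold below both for Slc1a5, Slc38a6, Slc6a4 and Slc6a15. Naive replicate 3 also had the highest summed fibroblast and smooth muscle markers among naive lungs (7038 CPM, against 4755 and 5813). Its summed airway epithelial markers were the lowest (18474 CPM, against 31054 and 26450). Scgb1a1 made up most of the airway sum (28770, 23860 and 16725 CPM in naive replicates 1 to 3). Foxj1, Scgb3a1 and Muc5b were not lowest in naive replicate 3. Col1a1, Col1a2, Col3a1, Pdgfra and Pdgfrb were highest there among naive lungs, but the other fibroblast and smooth muscle markers were not. Summed erythroid and platelet markers were also highest there (265.9 CPM, against 108.9 and 44.1). The sums alone therefore do not describe tissue makeup, and its part in the values of the members was not tested. Lung identity was plain in all libraries, with summed alveolar type 2 markers from 29038 to 32619 CPM. Total counts ran from 18913487 to 34986276 per library.

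Genes around the carriers were read from lists. Of the 26 tested genes of the ATF4 and amino acid starvation response, 2 rose and 0 fell, that is 7.69% where 3.11% of all genes were called. Cebpb, a transcription factor also induced in inflammation, stood at a mean of 69.9 ± 11.5 CPM in naive lungs and 106.55 ± 8.66 after injury, with a log2 fold change of 0.61 ± 0.12 and an adjusted p of 0.0310 from edgeR. Nupr1, a stress-induced chromatin protein, had means of 82.3 ± 7.79 and 116 ± 12.5 CPM, a log2 fold change of 0.49 ± 0.11 and an adjusted p of 0.0425 from edgeR. The median of the list was 0.11. Atf4 itself had -0.22 ± 0.13 and its target Asns, asparagine synthetase, 0.32 ± 0.13, and neither was called. At an unadjusted p under 0.05 by edgeR there were 9 of the 26 (16.7% over all genes). All injured lungs were higher for 5 genes and lower for 3 (12.3% and 10.6% of all genes). Leaving out either of naive replicates 1 and 2, or either of injured replicates 1 and 3, took the count called higher to 0. It was 1 without injured replicate 2 or by limma-voom, 3 without naive replicate 3, and 4 by DESeq2, with no filter or with the replicate block. DESeq2 called 6.47% and limma-voom 2.76% of all genes.

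Of the 30 tested genes of amino acid sensing upstream of mTORC1, none was called by edgeR, DESeq2 or limma-voom, 1 had an unadjusted p under 0.05 (where the share of all genes was 16.7%), and the median was -0.023. Tsc2 and Rheb, which had the highest mean CPM of them (a scale that does not allow for gene length), encode a brake on mTORC1 and its activating GTPase, and had -0.034 ± 0.11 and 0.031 ± 0.087. Among 16 tested amino acid and peptide carriers outside the named families, 1 rose (6.25%, where 3.11% of all genes were called). This was Slc16a10 (TAT1), which carries aromatic amino acids, at 23.0 ± 3.64 CPM in naive and 39.0 ± 1.56 CPM after injury (log2 fold 0.76 ± 0.12, adjusted p = 0.0113 by edgeR). The call was lost when naive replicate 2 was left out (adjusted p = 0.0619) and when injured replicate 1 was (adjusted p = 0.0503). Of the 16 carriers, 4 had an unadjusted p under 0.05 by edgeR (16.7% over all genes).

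Of 12 tested genes of glutathione synthesis and NRF2 targets, 2 rose and 0 fell, with a median of 0.21. That is 16.7%, where 3.11% of all genes were called. Gsr, glutathione reductase, had means of 58.8 ± 3.48 and 107.5 ± 6.42 CPM, a log2 fold change of 0.87 ± 0.089 and an adjusted p of 0.00116 from edgeR. Ggt1, which splits extracellular glutathione, had means of 1.40 ± 0.230 and 4.30 ± 1.46 CPM, a log2 fold change of 1.62 ± 0.31 and an adjusted p of 0.0228 from edgeR. The subunits of the enzyme that uses the imported cysteine, Gclc and Gclm, had -0.39 ± 0.14 and 0.15 ± 0.097 and were not called. Hmox1 had the largest change of the list, 1.72 ± 0.55, with an adjusted p of 0.226 from edgeR. It stood at 83.7, 82.1 and 263 CPM in injured replicates 1 to 3, against 43.6 ± 1.54 CPM in naive lungs. At an unadjusted p under 0.05 by edgeR there were 6 of the 12 (16.7% over all genes). Gclc and Nfe2l2, both lower, were among them. All injured lungs were higher for 6 genes and lower for 1 (12.3% and 10.6% of all genes). Gsr was the only call of the list when any 1 of the naive libraries, or 1 of injured replicates 1 and 2, was left out. The list had 3 calls without injured replicate 3 and 4 by DESeq2, which called 6.47% of all genes. Of 20 tested enzymes of arginine, glutamine, tryptophan and branched-chain amino acids, 3 rose and 0 fell, with a median of 0.066. That is 15%, where 3.11% of all genes were called, and all 3 use arginine. At an unadjusted p under 0.05 by edgeR there were 7 of the 20 (16.7% over all genes). Arg1, arginase of macrophages, had a log2 fold change of 5.19 ± 0.31 (adjusted p = 0.000596 by edgeR), Arg2, the mitochondrial arginase, 0.97 ± 0.20 (adjusted p = 0.0319), and Nos2, the inducible nitric oxide synthase, 1.14 ± 0.25 (adjusted p = 0.0458). Arg1 remained the only call of this list when either of naive replicates 1 and 2, or either of injured replicates 1 and 3, was left out. The arginine carriers Slc7a1 and Slc7a2 had the intervals given above, inside a 2-fold change.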

How the data were processed

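Whole left lungs were profiled by RNA sequencing with paired-end reads of 150 bases, per the labels' protocols. The build was mm10, and STAR, STAR-Fusion, HTSeq, edgeR and DESeq2 were used, per the submitters' processing notes. Their versions and the strand setting were not given in the sources used here. Per the file headers, the authors deposited read counts, normalized counts (signal), FPKM values, log2 fold changes and p-values for 23194 genes. Within a relative tolerance of 1e-06, the deposited signal was the counts divided by 1 factor per library, and the deposited FPKM followed from counts, gene length and column totals.

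Counts were fitted over the whole table with edgeR 4.0.16 in R 4.3.3: filterByExpr left 15486 genes, libraries were scaled by TMM, and groups were compared by the robust quasi-likelihood F test with no other term than group. All tests were two-sided, with Benjamini-Hochberg adjustment over all genes tested and a threshold of 0.05. Values after ± are SE for log2 fold changes and SD of 3 lungs for CPM and FPKM. Each SE was the size of the log2 fold change divided by the square root of its F statistic. Intervals at 95% were built from this SE and are unadjusted. DESeq2 1.42.0 and limma-voom (limma 3.58.1) were alternatives, beside other scalings and filters, leaving out abundant genes, a replicate block and leaving out each library. Levels of different members were compared only as FPKM. The procedure was tested on simulated data. It recovered 78 of 100 genes given a log2 fold change of 1 and 92 of 100 given 2, in either direction. Of its 184 calls, 14 were false. The changed genes were drawn across levels and recovery was not split by level. It therefore gives no rate for low-count members such as Slc7a11. The members and lists were chosen with earlier results of these data known. The naming rule took every called member and, per family, the 2 most abundant and the one with the lowest adjusted p, and per list the called genes with the 4 largest changes or, with none called, the 2 with the highest mean CPM. Other members, and Atf4, Asns, Gclc, Gclm, Hmox1 and Nfe2l2, were named after their values were seen. Of the 60 members, 60 were found in GENCODE M21, and 14 share exon bases with another gene. Counting without strand could not separate these. One untested member is counted but not reported here by itself.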

Additional observations from a re-analysis of the deposited data

How the results depend on the processing

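Over 14 alternatives, the log2 fold change kept its sign in every one that gave a value for 24 of the 40 tested members (Slc38a11 had a value in 13, with none under a filter of 1 CPM in 3 libraries), among them Slc7a11 (1.33 to 2.11) and Slc7a8 (0.74 to 1.21), and changed sign in at least 1 for 16, none of them called. Called in at least 1 alternative were 6 members and in none 34. Members higher numbered 2 by DESeq2, 1 with no filter on low counts and 1 with the replicate block. Leaving out 1 library gave 0 to 1 members higher and 0 to 1 lower. Genes of the ATF4 list higher numbered 4 with no filter, 4 by DESeq2, 4 with the replicate block and 1 by limma-voom, with 1 lower by DESeq2, and 0 to 3 higher with 1 library left out. Other carriers higher numbered 0 to 1, glutathione and NRF2 genes 1 to 3 and amino acid enzymes 1 to 2 with 1 library left out. By DESeq2, 4 glutathione and NRF2 genes were higher, and with the replicate block 1 was lower. DESeq2 called 6.47% and limma-voom 2.76% of all genes. For the other alternatives the share over all genes was not counted, so their counts have no such base here. The causes of these shifts were not tested.

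Same-numbered lungs did not deviate together (r = 0.0767, -0.0853 and 0.154 across 15486 genes for replicates 1, 2 and 3, and genes are not independent replicates), so the replicate numbers were not taken as pairs. Scaling moved the median of all genes by less than 0.1 on the log2 scale. Of the 5 tested members under 1 FPKM, the 95% interval ran from -0.92 to 2.17 for Slc6a20a and from -0.42 to 1.80 for Slc38a11, but from -0.64 to 0.48 for Slc1a2.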
